A study of Homo sapiens with 33 samples.

Results

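NCI-H2452 (H2452 below) is a malignant pleural mesothelioma cell line, and the data described here are its 3 RNA-sequencing libraries made without palbociclib, set against the 8 drug-free libraries of the other 3 lines that the study classed as sensitive to this CDK4/6 inhibitor. These 11 libraries were chosen by their labels, as the DMSO-treated controls of H2452 (3 libraries), H2052 (2), H28 (3) and MSTO-211H (3), out of 33 libraries in the series. All were grown in serum-containing RPMI medium with 0.1% DMSO, for 9 days in replicates 1 and 2 (replicate 1 of H2052) and for 10 days in replicate 3 (replicate 2 of H2052). The study lists H2452 as an established biphasic line with deleted CDKN2A and CDKN2B and a missense BAP1, and with NF2 and LATS2 intact; it lists H2052 and H28 as sarcomatoid and MSTO-211H as biphasic. The remaining libraries were the same 4 lines under 1 µM palbociclib or after its removal for 48 h, and the resistant lines MPP89 (mutated RB1) and MeT-5A (mesothelial cells immortalized with SV40).

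Mesothelioma arises from the mesothelial lining of the pleura and has few recurrently mutated oncogenes. Loss of CDKN2A, of the deubiquitinase gene BAP1 or of the Hippo pathway genes NF2 and LATS2 is typical, so that cell lines from different tumours differ in which brakes on growth they have kept. A baseline comparison therefore asks what a line carries before any drug is given. Among the programmes that can differ are the p53 target genes, among them cell cycle inhibitors and death receptors, the type I interferon response, whose genes block viruses and raise antigen presentation, and the HOX genes, which record the body position a cell came from.

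Each library gave 1 value per gene in CP20M, reads of the gene scaled to 20000000 per library, rounded up to a whole number. Genes that reached 100 CP20M in any of these 11 libraries were tested, which left 16288 of 58302 genes. A gene low in the other lines could pass this filter through H2452 alone. Any tested gene was called when H2452 lay on the same side of each of the 3 other lines. The difference had to exceed 1.5-fold with an FDR under 0.05 in all 3 contrasts (limma on log2(CP20M + 10)). The log2 differences below are on that scale, which understates the change of genes with low values, and "distance" is the log2 difference from the nearest of the 3 lines. The p-values measure the spread between libraries of a line, which the study describes as independent experiments. Each line is 1 line: with 4 lines, an exact permutation of line labels could not go below p = 0.25.

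Libraries of the same line correlated with r between 0.975 and 0.99 over genes, and libraries of different lines with r between 0.662 and 0.809. The H2452 libraries held about 16700000, 14750000 and 16990000 reads in genes, as estimated from the steps of the rounded values. Replicate 2 of H2452 stood apart from replicates 1 and 3 in several matrix genes, and replicate 1 in interferon-stimulated genes, as given beside those genes. Of 15 mesothelial markers, 11 were tested and 0 were called in either direction, by limma with adjusted p-values or at an unadjusted p under 0.05: mesothelin (MSLN) was at 1183, 1223 and 816 CP20M in H2452, below H2052, above H28 and overlapping MSTO-211H, and WT1 at 248, 292 and 303. The summed level of the 15 markers was 5405 to 6077 CP20M in H2452, against 10062 to 12406 in H2052, 1190 to 2876 in H28 and 4671 to 5039 in MSTO-211H. Markers of leukocytes, endothelium and lung epithelium summed to 1314 to 1768 CP20M in H2452 and to at most 1246 elsewhere. Of these 15, 3 were tested and 2 were higher in H2452. CD14 was at 133, 361 and 176 CP20M against 0 to 13, and PECAM1 at 29, 120 and 12 against 0 to 11. Both genes passed the expression filter only through H2452 libraries, PECAM1 through replicate 2 alone. The share of 2 in 3 was thus largely fixed by the filter and does not measure how often such markers were higher. The part of these markers in other results was not tested. In bulk RNA, fewer cells of a kind and less RNA per cell cannot be told apart.

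H2452 was higher than each of the other 3 lines in 1073 genes (6.59% of those tested) and lower in 1491 (9.15%). The median distance of the called genes was 2.07-fold among those higher and 2.18-fold among those lower, and 190 and 269 genes, respectively, were over 4-fold from the nearest line. The 3 H2452 values did not overlap the 8 others in 1014 of the 1073 genes and in 1451 of the 1491. The same rule applied to each line in turn called 1346 genes higher and 1122 lower in H2052, 1680 and 1825 in H28, and 1373 higher and 897 lower in MSTO-211H, so that H2452 was not the line with the most genes apart. Upper-quartile scaling moved the median of all genes from -0.04 to 0.09 (log2, H2452 minus the mean of the others) and the split of calls to 1430 higher and 1252 lower, that is from 41.8% to 53.3% higher.

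**Figure D1:**
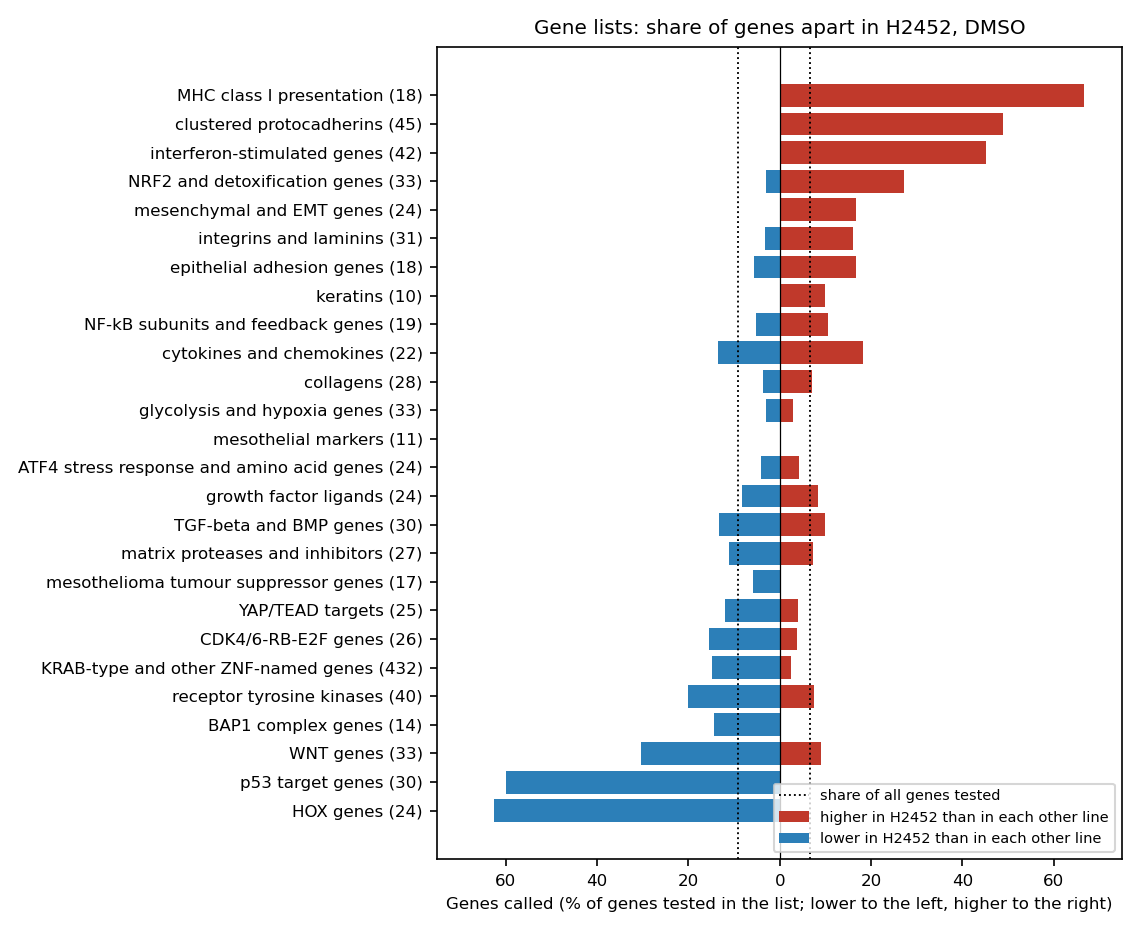
Share of the tested genes of each list (number in brackets, lists of at least 10) that were called higher (red, right) or lower (blue, left) in H2452 than in each of the other 3 sensitive lines, in percent, with the shares over all 16288 genes as dotted lines. MHC class I presentation genes, clustered protocadherins and interferon-stimulated genes stand out on the higher side, and HOX genes, p53 targets and WNT genes on the lower side.

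A small group of genes was close to silent in the other 3 sensitive lines and well expressed in H2452. With at least 100 CP20M in all 3 H2452 libraries and at most 10 in all 8 others, there were 20 such genes (0.123% of those tested). PLCXD3 (ENSG00000182836, chr5:41306952-41510601, GRCh38), a phospholipase C-like gene, had 1512, 3093 and 1455 CP20M in H2452 and at most 2 elsewhere (distance 7.37, limma adjusted p = 1.46e-08). SLC18A3, the vesicular acetylcholine transporter, was at 1114, 3427 and 377 against at most 1. All 3 H2452 values lay far above all 8 others in both genes, and replicate 2 was the highest H2452 library in each.

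Other members of this group were TMEM233 (914, 508 and 731 CP20M against 0 in all 8), TSPYL5 (604, 584 and 648 against at most 2), the secreted WNT antagonist SFRP2 (113, 627 and 105 against at most 2) and the zinc finger gene ZNF677 (169, 142 and 162 against at most 1). The group also included the cytokine gene TNFSF8. TNFSF15, its neighbour on chromosome 9 and the ligand of death receptor 3, had 1152, 4387 and 1109 CP20M in H2452 against 0 to 12. The histone genes HIST1H3F (1138, 1167 and 1263) and HIST1H2BH (750, 706 and 694), which lie next to each other on chromosome 6, were at most 5 in the 8 others. In the control libraries of MPP89 and MeT-5A, however, HIST1H3F was at 798 to 2990 CP20M and HIST1H2BH at 704 to 2897. ZNF677 was at 395 to 1082 there, and TSPYL5 at 1837 and 1864 in MPP89 and 0 in MeT-5A. TMEM233 was at most 2 in these libraries and SFRP2 was at 0.

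TNXB, tenascin-X of the extracellular matrix, had 33831, 63477 and 23751 CP20M in H2452 against a lowest of 57, a median of 100 and a highest of 170 in the other libraries (distance 8.10, limma adjusted p = 4.75e-08). Its neighbours TNXA, CYP21A2 and CYP21A1P were in the same group of 20, and because this region holds near-identical copies, how its reads divide between these 4 genes is uncertain.

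The opposite pattern, at most 10 CP20M in all H2452 libraries and at least 100 in all 8 others, was found in 43 genes (0.264%). The most distant protein-coding gene was PEG10 (chr7:94656325-94669695), an imprinted gene derived from a retrotransposon, with 5, 5 and 11 CP20M in H2452 against 5345 to 24363, with a median of 5978 (distance -8.40, limma adjusted p = 9.74e-09); it lay just outside the limit of 10 in replicate 3. PLIN2, which coats lipid droplets, was at 9, 0 and 3 CP20M against 490 to 5067. DCDC2, a microtubule-binding gene, was at 2, 2 and 3 against 260 to 15123. The 3 H2452 libraries were thus near 0 in genes that every other sensitive line expressed, at levels that themselves differed widely between lines.

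Other genes far below the nearest line had varied roles. MYH10, non-muscle myosin IIB, was at 71, 60 and 32 CP20M against 3727 to 6724. The angiomotin-like gene AMOTL1, which binds YAP at junctions, was at 40, 29 and 46 against 1632 to 6292. PTGFRN, a tetraspanin partner, was at 10, 3 and 13 against 2031 to 3327. The adhesion receptor ADGRL2 was at 8, 5 and 2 against 615 to 1782, the phosphatase PTPN13 at 9, 3 and 3 against 550 to 1461, and ITM2C at 10, 7 and 9 against 719 to 1741. The zinc finger gene ZNF618 was at 3, 2 and 3 CP20M against 664 to 2016 and AFF3 at 15, 5 and 36 against 1009 to 2249. In each of these the highest H2452 library was far below the lowest of the others, and all were called lower again under palbociclib.

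The p53 target genes were the list with the second highest share of lower calls. All 30 genes were tested, 18 were lower in H2452 than in each other line, none was higher, and the median difference from the mean of the other lines was -1.76, against -0.04 over all genes. CDKN1A (chr6:36676460-36687337), which encodes the CDK inhibitor p21, had 142, 112 and 169 CP20M in H2452 against a lowest of 4222, a median of 7554 and a highest of 9192 elsewhere. Its distance was -5.30 (limma adjusted p = 2.05e-08), and the groups did not come near each other.

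Some members of this list were close to silent in H2452. CYFIP2, a WAVE complex subunit, was at 16, 17 and 23 CP20M against 1781 to 5510. The antiproliferative gene BTG2 was at 6, 14 and 8 against 263 to 1093, and the death receptor gene TNFRSF10A at 2, 2 and 3 against 282 to 1090. Similarly low were EDA2R (18, 25 and 25 against 184 to 1065) and the mitochondrial reductase gene FDXR (53, 43 and 63 against 547 to 1965). The secreted factor GDF15 was the most variable, at 133, 26 and 423 CP20M against 1339 to 5405.

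Other targets were lower but far from silent. MDM2, which encodes a ubiquitin ligase, was at 1852, 1788 and 2024 CP20M against 4049 to 15934 (distance -1.28, limma adjusted p = 4.8e-06). The pro-apoptotic BAX was at 637, 485 and 675 against 976 to 3285, and the second TRAIL receptor gene TNFRSF10B at 1295, 1441 and 1548 against 3083 to 5019. CCNG1, ZMAT3, PHLDA3, BBC3 (PUMA), RRM2B, DDB2, XPC and FAS made up the rest of the 18, with FAS the nearest to the other lines (distance -0.78). In all 18 the H2452 values did not overlap the other 8 libraries, which also held for 1451 of all 1491 lower genes.

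**Figure D2:**
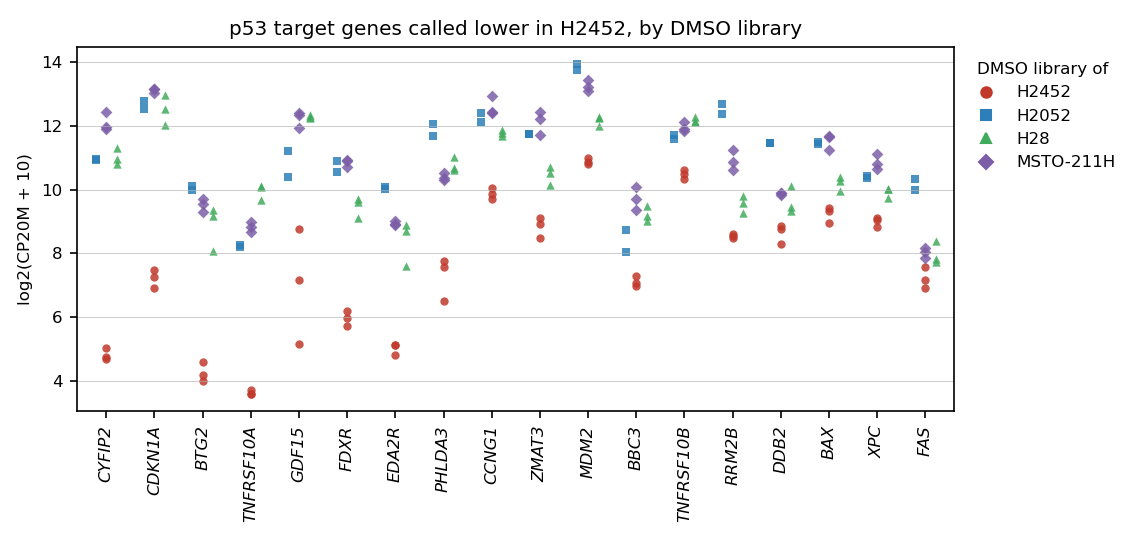
Levels of the 18 p53 target genes called lower in H2452, as log2(CP20M + 10) in each of the 11 DMSO libraries, with 1 point per library and genes ordered by distance. The red H2452 points lie below all other points in each gene and the gap is widest for CYFIP2 and CDKN1A and narrowest for FAS.

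Of the 12 targets not called, 11 were below H2052, 7 below H28 and 8 below MSTO-211H by their means, 5 of them below all 3, and their median difference from the mean of the other lines was -0.59. GADD45A was the 1 gene above all 3. PLK2 was at 13103, 10970 and 16018 CP20M within the range of the others (10034 to 37957), POLH at 805, 745 and 724 within 553 to 1153, and GADD45A at 2439, 2091 and 3530 against 336 to 2657. SPATA18 was listed at 0 in all 3 H2452 libraries and averaged 1 CP20M in H28. Against the 2 resistant lines, 12 of the 18 lower targets were also below all 4 control libraries of MPP89 and MeT-5A. Over all lower genes this held for 1209 of 1491, so the targets did not stand out here. CDKN1A was at 532 and 381 CP20M in MPP89 and at 2347 (untreated) and 2518 (DMSO) in MeT-5A. Under palbociclib 18 of the 30 were again called lower and 1, GADD45A, higher, and 15 were lower in both conditions.

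Of 26 CDK4/6-RB-E2F genes tested, 1 was higher (3.8%) and 4 were lower (15.4%), CDKN1A among the lower ones, against 6.59% and 9.15% of all genes. CCNE1 (cyclin E1), at 72 to 117 CP20M, lay below all other libraries (121 to 231) but was not called (distance -0.44). CDKN2C, the CDK4/6 inhibitor p18, was higher at 1258, 1001 and 962 CP20M against 100 to 534. CDKN1C (p57) was lower at 42, 28 and 33 against 80 to 302, CCND2 (cyclin D2) at 8, 2 and 3 against 18 to 2253, and E2F5 at 211, 243 and 249 against 509 to 806. CDK4 (3520, 2742 and 3886 CP20M against 2963 to 4597) and MKI67, a proliferation marker (9136, 7589 and 7680 against 1555 to 11301), overlapped the other libraries, and CCND1 (cyclin D1) at 5066, 6303 and 5755 overlapped MSTO-211H.

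Genes of MHC class I antigen presentation had the highest share of higher calls of the lists with 10 or more tested genes. Of 18 tested, 12 were higher in H2452 than in each other line (66.7%, against 6.59% of all genes). None was lower, and the median difference was 2.25. HLA-B had 29710, 35340 and 33939 CP20M in H2452 against a lowest of 598, a median of 3558 and a highest of 9712 elsewhere (distance 1.83, limma adjusted p = 6.06e-06). The light chain gene B2M had 26013, 29675 and 27424 against 3485 to 9901 (distance 1.59, limma adjusted p = 6.9e-06). The lowest H2452 library was well above the highest of the others in both genes.

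Several other genes of the list, though not all, were also higher. TAP1, a subunit of the peptide transporter, was at 3164, 3249 and 3951 CP20M against 498 to 1212. The immunoproteasome subunit PSMB9 was at 1234, 1731 and 1581 against 28 to 689 and PSMB8 at 2476, 2434 and 2901 against 0 to 1624. NLRC5, the transactivator of class I genes, was at 3134, 2587 and 2701 against 37 to 2293, a narrow gap. HLA-C, HLA-F, HLA-G, TAPBP and the peptide trimming gene ERAP2 were also among the 12. HLA-F had the largest distance, 2.56, at 1149, 1549 and 1483 CP20M against 84 to 268. Reads of HLA genes are shared between similar loci and depend on the alleles of a line, so levels of single HLA genes are uncertain, which does not concern B2M, TAP1 or the PSMB genes.

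The genes not called were PSMB10, which was highest in MSTO-211H, and ERAP1, CALR, HLA-E, TAP2 and PDIA3, with distances between 0.00 and 0.49. Of 5 MHC class II genes tested 0 were called, by limma with adjusted p-values or at an unadjusted p under 0.05, and their transactivator CIITA was at 232, 200 and 186 CP20M within the range of the other lines. Of the 12 class I genes, 11 were higher in both the DMSO and palbociclib libraries, and 11 were above all 4 control libraries of the resistant lines. Over all 1073 higher genes these counts were 695 and 717.

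Of 42 interferon-stimulated genes, 19 were called higher (45.2%, against 6.59% of all genes) and none lower, with a median difference of 2.07. BST2 (tetherin, which holds budding virus at the cell surface; chr19:17402939-17405630) had 2280, 4726 and 3808 CP20M in H2452 against a lowest of 0, a median of 4 and a highest of 51 (distance 6.67, limma adjusted p = 7.48e-08). RSAD2 (viperin) was at 139, 378 and 730 against 0 to 13, and XAF1 at 757, 3226 and 2695 against 0 to 141. IFIT2 (2279, 3999 and 3864 CP20M against 19 to 757) and IFIT3 (2356, 4084 and 4531 against 39 to 745) were among the most highly expressed.

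The size of these differences depended on the H2452 library. Replicate 1 was the lowest of the 3 in 41 of the 42 genes, and the median over the list was 347 CP20M in replicate 1, 877 in replicate 2 and 1020 in replicate 3. In IFI6 the values were 301, 2439 and 2592, and replicate 1 lay inside the range of the other lines (5 to 355). In MX1 they were 566, 2712 and 4305 against 22 to 609. In the other lines the list's median was 250 and 354 in H2052, 326 to 368 in MSTO-211H and 21.5 to 32.5 in H28, so that H2452 replicate 1 overlapped H2052 and MSTO-211H. In 15 of the 19 called genes the H2452 values did not overlap the other 8, against 1014 of all 1073 higher genes. The count of 19 became 27 without H2452 replicate 1 and 10 without H2052 replicate 1, which left that line with 1 library assumed to vary like the rest.

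The regulators of this response were not uniformly high. IRF7 (343, 756 and 722 CP20M against 93 to 330) and IRF9 (480, 833 and 704 against 147 to 385) were called higher, as was the RNA sensor gene DHX58. STAT2 and IRF1 were not called. Apart from regulators, the list member HERC5 at 12, 18 and 36 was below the median of 287.5 in the other libraries. In 2 of the 19, IFIT2 and DHX58, all H2452 libraries were above all 4 control libraries of the resistant lines. Over all higher genes this held for 717 of 1073. MPP89 had a median of 1640 and 1910 CP20M over the 42 genes in its 2 DMSO libraries, and MeT-5A 422 (untreated) and 346 (DMSO). Under palbociclib 25 of 42 were called higher, 16 of them in both conditions.

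**Figure D3:**
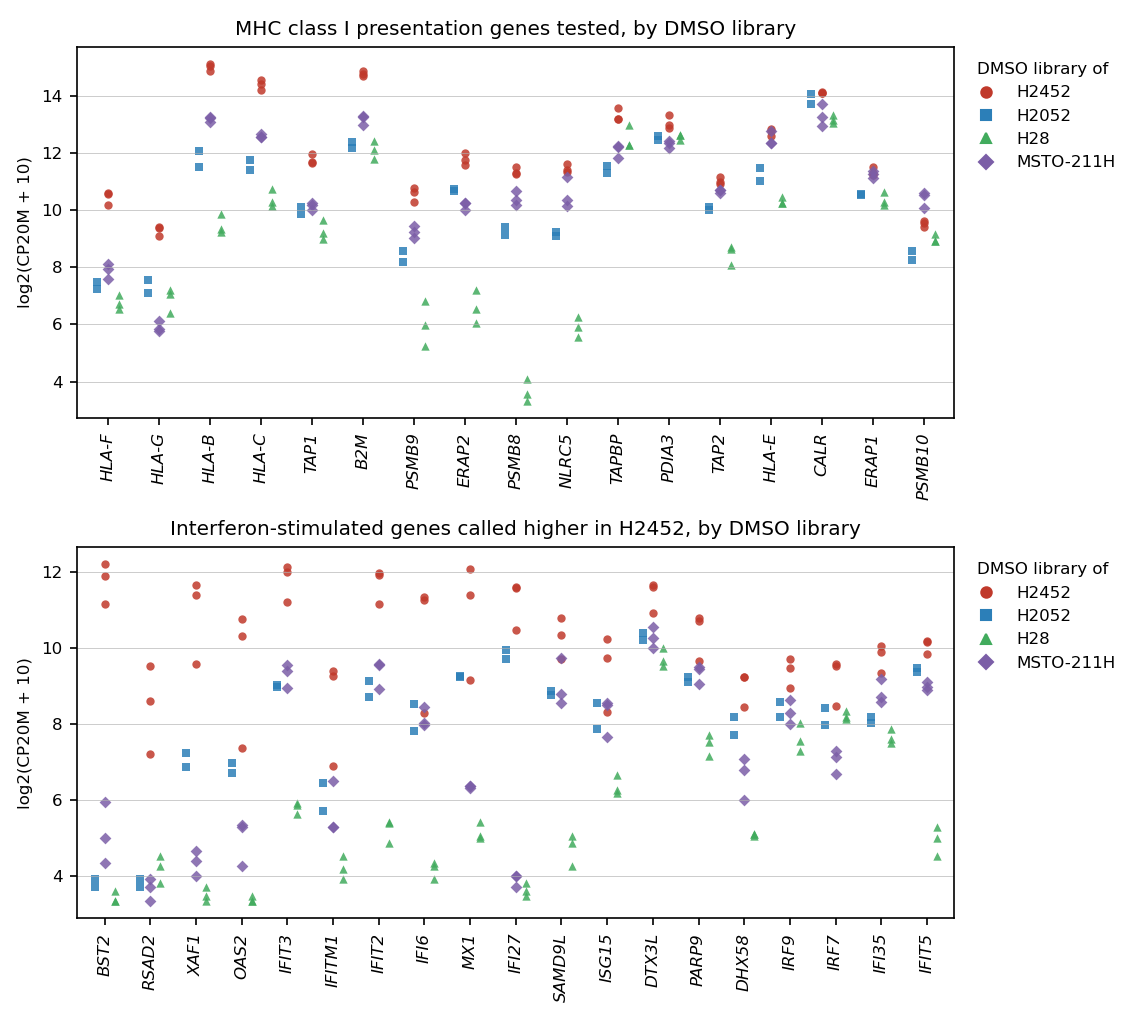
Levels of 17 tested MHC class I presentation genes (top) and of the 19 interferon-stimulated genes called higher in H2452 (bottom), as log2(CP20M + 10) in each of the 11 DMSO libraries, 1 point per library. The H2452 points form a tight group above the others in the first 11 genes of the upper panel, and in the lower panel 1 of the 3 H2452 points, replicate 1, lies below the other H2452 points.

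Promoters of 4 of these genes are shown because the members that were higher together differ widely in the sequence before the RefSeq start used. Only 1 start per gene was taken, and other starts of these genes, which could give other counts, were not examined. Each is the 200 bases before the RefSeq start (GRCh38.p14), given 5′ to 3′ on the gene's strand with every CG dinucleotide in capitals. BST2 is chr19:17405631-17405830 (minus strand), B2M chr15:44711317-44711516 (plus), TAP1 chr6:32853705-32853904 (minus) and RSAD2 chr2:6865685-6865884 (plus).
BST2: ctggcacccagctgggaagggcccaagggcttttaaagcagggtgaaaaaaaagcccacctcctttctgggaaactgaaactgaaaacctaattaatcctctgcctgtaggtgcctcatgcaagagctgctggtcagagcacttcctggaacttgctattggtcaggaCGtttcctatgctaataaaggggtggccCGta
B2M: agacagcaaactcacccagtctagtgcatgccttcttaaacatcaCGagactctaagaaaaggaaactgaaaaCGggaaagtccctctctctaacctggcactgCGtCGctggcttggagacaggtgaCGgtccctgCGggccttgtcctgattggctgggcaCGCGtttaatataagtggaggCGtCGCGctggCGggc
TAP1: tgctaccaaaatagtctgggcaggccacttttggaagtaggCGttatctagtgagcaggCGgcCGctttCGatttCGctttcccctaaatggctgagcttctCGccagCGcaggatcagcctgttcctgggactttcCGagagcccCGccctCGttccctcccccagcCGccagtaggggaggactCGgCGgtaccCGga
RSAD2: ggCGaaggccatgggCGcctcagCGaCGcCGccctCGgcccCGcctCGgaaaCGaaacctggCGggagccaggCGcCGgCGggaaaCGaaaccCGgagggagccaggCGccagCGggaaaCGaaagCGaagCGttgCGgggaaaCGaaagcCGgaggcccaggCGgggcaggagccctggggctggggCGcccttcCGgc
These 200 bases held 2 CG dinucleotides in BST2, 12 in B2M, 14 in TAP1 and 26 in RSAD2. In the window from 250 bases before to 50 after the start, the 15 interferon-stimulated genes called higher that had a RefSeq promoter held 0 to 45 CG dinucleotides with a median of 7, and the 16 of the list that were not called held a median of 10. The 10 class I genes called higher held a median of 18, and all 11284 tested genes with a promoter a median of 26. At least 1 CG was present in 14 of the 15, and in 95.8% of 27305 RefSeq promoters. Called and not called members of the interferon list thus had overlapping CG counts. These counts describe letters and not methylation, which was not measured here.

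HOX genes had the largest share of lower calls. Of 39 in the matrix 24 were tested, and 15 were lower in H2452 than in each other line (62.5%, against 9.15% of all genes). None was higher, and the median difference was -3.01. HOXB9 (chr17:48621156-48626358) had 2, 2 and 3 CP20M in H2452 against a lowest of 619, a median of 893.5 and a highest of 1543 elsewhere (distance -6.12, limma adjusted p = 7.93e-08). HOXB7 was at 2, 3 and 0 against 215 to 491, and HOXA3 at 5, 5 and 2 against 176 to 580. The 15 genes came from all 4 clusters: HOXA3 and HOXA5; HOXB5 to HOXB9; HOXC4, HOXC6, HOXC8, HOXC9 and HOXC10; and HOXD3, HOXD4 and HOXD8.

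H2452 was not without HOX expression. HOXB2 (308, 353 and 341 CP20M), HOXB3 (314, 322 and 285) and HOXB4 (368, 303 and 310), away from HOXB9 along the HOXB cluster, were expressed in all 3 H2452 libraries, as was HOXA10 (141, 159 and 137). None of these 4 was called. Over the 24 tested genes the median was 1 to 2 CP20M in the H2452 libraries, 33.5 to 42.5 in H28, 212 and 225 in H2052, and 312 to 380 in MSTO-211H. H28 was the nearest line in each of the 5 HOXB genes called and in HOXC4, HOXC6 and HOXC8. In 12 of the 15 genes H2452 was also below all 4 resistant control libraries, and 14 were called lower again under palbociclib. Over all 1491 lower genes these counts were 1209 and 975. HOX genes of a cluster overlap each other in the annotation, so reads of neighbours may be split between them.

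**Figure D4:**
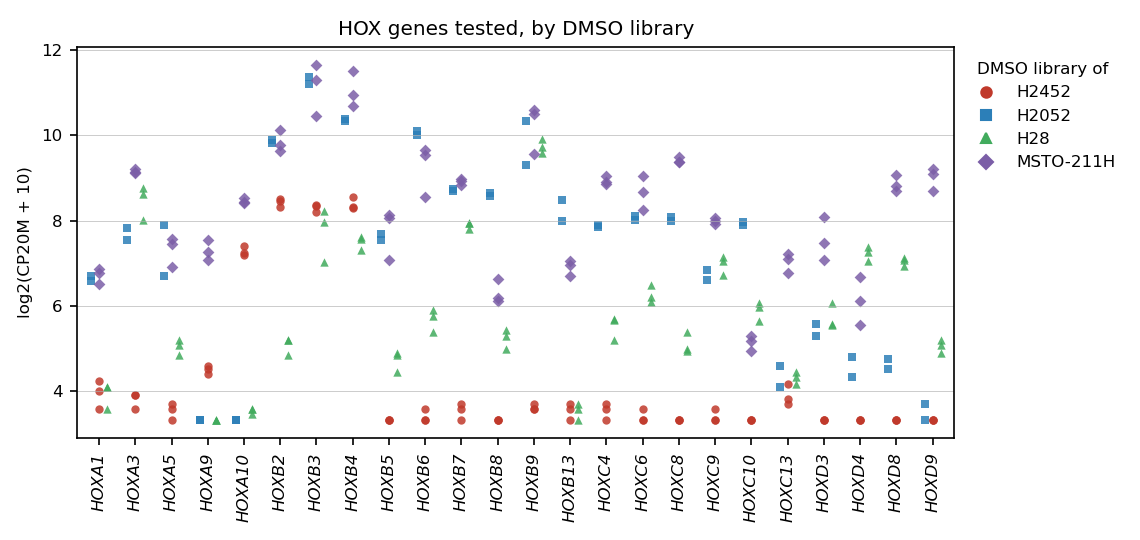
Levels of the 24 tested HOX genes as log2(CP20M + 10) in each of the 11 DMSO libraries, 1 point per library, ordered by cluster and number. The red H2452 points lie at the floor of the scale in most genes, while HOXB2, HOXB3, HOXB4 and HOXA10 show expression in H2452.

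Of 33 NRF2 antioxidant and detoxification genes tested, 9 were called higher in H2452 (27.3%) and 1 lower (3.0%), against 6.59% and 9.15% of all genes. The median difference was 1.02 from the mean of the other lines. By line it was 1.35 from H2052, 0.83 from MSTO-211H and only 0.2 from H28. AKR1B1, an aldose reductase, had 36271, 29150 and 41544 CP20M against a lowest of 1299 and a highest of 5958 (distance 2.89, limma adjusted p = 2.8e-07). AKR1C1 was at 7304, 1876 and 7008 against 39 to 1121, and its reads may be shared with close relatives. ALDH3A1, GSTM3, OSGIN1, SRXN1 and the NADPH-producing enzymes ME1, PGD and TALDO1 were also higher, with distances from 0.81 to 2.77. The lower gene was ALDH1A3, a retinoic acid-producing dehydrogenase, at 421, 616 and 171 against 1809 to 12958. Replicate 2 was the lowest H2452 library in 25 of the 33 genes. The list's median in H2452 (2570, 1880 and 2740 CP20M) was not above that in H28 (2450 to 3150).

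Among genes of the cell surface and matrix, a few were far above the other lines while most members of their lists were not called. Of 28 collagens tested 2 were higher (7.1%) and 1 lower (3.6%), against 6.59% and 9.15% of all genes, with a median difference of -0.35. The collagen gene COL12A1 was at 29499, 52019 and 33644 CP20M against 422 to 4623 and the metalloprotease ADAM12 at 12523, 12264 and 10192 against 23 to 1052. S100A4, a mesenchymal marker, was at 1480, 2628 and 805 against 12 to 186. The matrix genes TNC and SPARC were higher too, as was ZEB1, a repressor of epithelial genes, at 1476, 1541 and 1547 against 565 to 1059. Together 4 of 24 mesenchymal genes were higher (16.7%) and none lower, with a median difference of 0.84.

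Of 18 epithelial adhesion genes tested, 3 were higher (16.7%) and 1 lower (5.6%), against 6.59% and 9.15% of all genes. Their median difference was -0.47. The higher ones were ESRP2, a splicing factor of epithelial cells, the protease inhibitor SPINT2, at 705, 1255 and 612 CP20M against 2 to 56, and the mucin MUC1, at 332, 642 and 309 against 12 to 100. The desmosomal plakophilin PKP3 was lower, at 111, 82 and 96 against 199 to 1341, and E-cadherin (CDH1), with at most 5 CP20M in the 11 libraries, was not tested. COL1A2 was higher but variable in H2452, at 4635, 20006 and 3000 CP20M, with 1136 and 1300 in H2052 and at most 4 in H28 and MSTO-211H. ITGA11, a collagen receptor, showed the same excess in replicate 2, at 331, 1118 and 177 against 13 to 85. Of 31 integrin and laminin genes 5 were higher (16.1%) and 1 lower (3.2%). ITGB1, the common beta-1 integrin chain, was at 32022, 42244 and 31072 against 10436 to 17332.

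Clustered protocadherins gave 22 higher calls of 45 tested genes and none lower, and all 22 were gamma protocadherins on chromosome 5. Their values were close within each library (coefficient of variation 11.6% to 21.3%), with a median of 3983, 4425 and 3302 CP20M in H2452 and of 449 to 1102 in the others. The lowest in the H2452 libraries were 3922, 4316 and 3239 and the highest 6589, 6636 and 5378. Gamma protocadherin transcripts share their last exons, so these 22 calls are close to 1 measurement and cannot be assigned to single genes.

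Receptors and ligands of growth factor signalling were more often lower. Of 40 receptor tyrosine kinases tested, 8 were lower and 3 higher. IGF1R was at 159, 152 and 110 CP20M against a lowest of 2069, a median of 2906.5 and a highest of 8703 (distance -3.86, limma adjusted p = 5.55e-08). The ephrin receptor EPHA4 was at 11, 83 and 4 against 253 to 809, ERBB2 at 680, 596 and 607 against 1721 to 3241, and FGFR4, FLT4, PTK7, EPHB2 and EPHB4 were lower as well. The higher receptors were PDGFRB at 1576, 2912 and 1457 against 8 to 648, FGFR1 at 7011, 5431 and 6876 against 1878 to 3866, and CSF1R at 109, 94 and 84 against 7 to 35. The PDGFRB ligand gene PDGFB was lower in H2452, at 22, 5 and 18 CP20M against 203 to 2381, while the ligand gene EGF was higher, at 154, 60 and 130 against 5 to 23.

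Of 33 WNT pathway genes, 10 were lower (30.3%) and 3 higher (9.1%), against 9.15% and 6.59% of all genes. The share of higher genes was thus near that of all genes. The lower ones included the receptors FZD3 (0 in all 3 libraries against 77 to 499), FZD7 and the nuclear effector LEF1 (5, 0 and 2 against 81 to 345), together with the feedback genes AXIN2 (8, 17 and 6 against 34 to 176), NKD1, NKD2 and ZNRF3. TCF7L2, another nuclear effector, was higher at 1058, 1813 and 1123 CP20M against 160 to 568, as were SFRP2 and FZD4. In TGF-beta signalling the receptors went opposite ways, TGFBR2 at 4932, 6040 and 3761 against 982 to 2112 and TGFBR1 at 475, 336 and 430 against 908 to 3430; 3 of 30 genes of this list were higher and 4 lower, shares near the background. Among cytokines, 4 of 22 were higher (18.2%), including CCL2 at 441, 1564 and 478 CP20M against 5 to 91. In the other direction 3 were lower (13.6%), including LIF at 209, 201 and 348 against 806 to 7273. The remaining lists had at most 2 calls in each direction, apart from YAP/TEAD targets (1 higher and 3 lower of 25), matrix proteases (2 and 3 of 27) and zinc finger genes (11 and 64 of 432, 14.8% lower).

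Among tumour suppressor genes of mesothelioma, BAP1 at 1307, 1145 and 1353 CP20M lay below all other libraries (1669 to 2420), but its distance of -0.58 was just inside the 1.5-fold limit. LATS2, at 3642, 2763 and 3847 CP20M against 0 in H2052 and 1309 to 2690 in H28 and MSTO-211H, was just short of a call on the other side (0.58). NF2 at 6520, 5738 and 7190 lay between MSTO-211H (4022 to 4715) and H28 (13067 to 16708), above 305 and 407 in H2052. CDKN2A and CDKN2B were at 0 in all H2452 libraries and were not tested. MTAP, their neighbour on chromosome 9, was at 2, 0 and 0 CP20M in H2452 and 0 in H2052, against 1188 to 1816 in the 2 other lines. RB1 was present at 1403, 1297 and 1367.

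The called genes were not spread evenly over the chromosomes. On chromosome 8, 164 of 556 tested genes were lower (29.5%), against 9.15% of all genes, and on chromosome 9, 127 of 623 (20.4%). Higher genes were most frequent on chromosome 10 (14.6%) and chromosome 6 (12.4%), against 6.59%. The shares in the palbociclib libraries were 29.0% and 19.2% lower on chromosomes 8 and 9, and 14.4% and 12.8% higher on chromosomes 10 and 6.

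Within these chromosomes the calls clustered in windows of 10 Mb. On chromosome 8, 59 of 102 genes between 140 and 150 Mb were lower and none higher, whereas 23 of 48 between 30 and 40 Mb were higher and none lower. On chromosome 3, 41 of 122 genes between 40 and 50 Mb and 39 of 94 between 50 and 60 Mb, the window of BAP1, were lower. On chromosome 9, 27 of 63 between 90 and 100 Mb were lower and none was higher. On chromosome 10, 14 of 30 genes between 30 and 40 Mb, where ITGB1 and ZEB1 lie, were higher and none lower. The p53 target genes TNFRSF10A, TNFRSF10B and RRM2B lie on chromosome 8, and HLA-B, HLA-C, TAP1, PSMB8 and PSMB9 on chromosome 6 between 30 and 40 Mb, where 39 of 187 genes were higher.

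**Figure D5:**
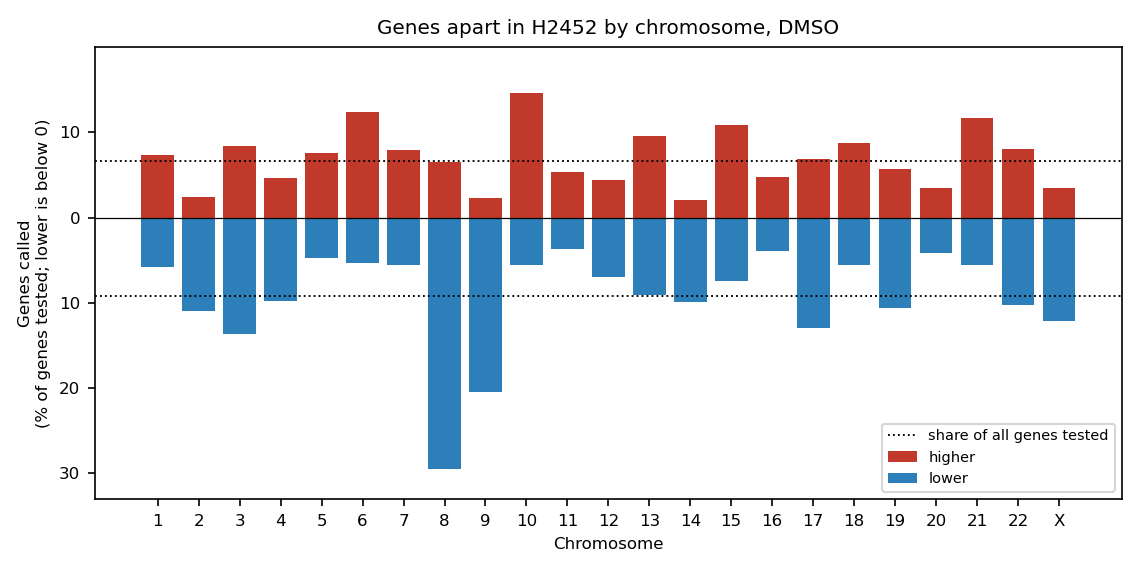
Percent of tested genes on each chromosome that were called higher (red, above 0) or lower (blue, below 0) in H2452 than in each of the other 3 sensitive lines in DMSO, with the shares over all genes as dotted lines. Chromosomes 8 and 9 hold the largest shares of lower genes, 29.5% and 20.4%, and chromosome 10 the largest share of higher genes, 14.6%.

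The differences were largely present under palbociclib, in libraries that the DMSO comparison did not use. These libraries came from the same 4 lines and the same experiments, so they are not an independent repeat. There 1141 genes were called higher (7.11% of 16052 tested) and 1404 lower (8.75%). Of the genes called higher in DMSO 695 were called again (64.8%, or 60.9% of the palbociclib calls), and of those called lower 975 (65.4%, or 69.4%); no gene was called in opposite directions. Among the genes tested in both, 975 of 1019 higher and 1346 of 1421 lower genes kept H2452 on the same side of all 3 lines. In the single washout library of each line, 980 of 1073 and 1382 of 1491 did so. Compared with the resistant lines, which the rule did not use either, H2452 lay beyond all 4 control libraries of MPP89 and MeT-5A in 717 of the 1073 higher and 1209 of the 1491 lower genes.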

How the data were processed

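The deposited matrix holds 1 score per gene and library: per the study's methods the authors mapped paired-end reads to GRCh38 with STAR, counted them per gene with HTSeq on Ensembl annotation and scaled them to 20000000 reads per library (CP20M); the labels' processing notes name Trimmomatic 0.36, STAR 2.5.3 and HTSeq 0.9.1. The values were rounded up, so each library sums to 20007662 to 20021400 and the values are not raw counts. Of the 11 DMSO libraries, 7 skipped whole numbers at steps that gave a depth of 14750000 to 19360000 reads, and the depth of the other 4 could not be had this way. No p-value, interval or floor was computed from depth.

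Libraries were grouped by their labels. The test was limma 3.58.1 in R 4.3.3 (lmFit, eBayes with a trend) on log2(CP20M + 10), with Benjamini-Hochberg adjustment over all genes tested, within the 11 DMSO libraries and again within the 11 palbociclib libraries. The deposited unit required limma in place of a count model. Named genes were the 10 most distant protein-coding genes in each direction, up to 3 called genes of each of 30 lists and a fixed set of tumour suppressor, cell cycle and marker genes, with the members of on and off groups beside them; further list members, chosen after their values were seen, are also given. A few genes that these rules name are not reported here. The members, lists and rules were chosen with earlier results of these data known. Gene positions are from GENCODE 44 (57532 of 58302 genes matched) and promoters from RefSeq, whose CG dinucleotides were counted as a description chosen after the data were seen. On simulated data the test recovered 73% of 2-fold and 96% of 4-fold changes with 0 false calls among 14115 genes. The simulation gave all 4 lines the same mean per gene, apart from 200 well expressed genes changed in H2452. Differences among the other 3 lines were not simulated, so the 0 false calls do not measure the error rate of the calls reported here. Alternatives covered the pseudocount, filter, scaling, variance model, lines in the fit, treatment days, fold limit and each library left out.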

Additional observations from a re-analysis of the deposited data

Results flagged for a closer look

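The difference of H2452 from the mean of the other 3 sensitive lines was itself compared between palbociclib and DMSO, with the libraries of an experiment paired. It changed in 2077 of 16759 genes (12.4%, limma, FDR under 0.05) and in 32 of the 104 named genes tested (30.8%). The count over all genes was 640 with no pairing and 650, 1413 and 720 without H2452 pair 1, 2 and 3, and 12, 16, 20 and 14 of the 32 then still passed. Over 7 alternatives 5 of the 32 passed in each: AFF3, AKR1B1, CCNE1, HIST1H2BH and HIST1H3F. The remaining 27 did not pass in at least 1, among them SLC18A3, whose sign turned with a pseudocount of 1. The named genes were chosen on their DMSO values, so the second share is given as a description. Values below are the log2 change of the difference from DMSO to palbociclib, and a negative value means that H2452 moved down relative to the other lines.

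Among genes higher in H2452 at baseline the difference was smaller under palbociclib in HIST1H3F (-5.16), HIST1H2BH (-4.0), CCL2 (-3.0), PLCXD3 (-1.72), AKR1B1 (-1.50), COL1A2 (-1.27), PECAM1 (-1.01), TGFBR2 (-0.97), CXCL12 (-0.92) and ITGA11 (-0.83). The neighbouring histone genes had the largest changes, and their lead over the other lines fell with the drug, as did that of the chemokine genes CCL2 and CXCL12. It was larger in SLC18A3 (0.47), ZNF677 (0.62), SFRP2 (0.67) and CD14 (1.26). Among genes lower at baseline, H2452 came nearer to the other lines in HOXB9 (0.91), PTPN13 (0.95), FZD3 (0.99), ITM2C (1.01), LEF1 (1.03), PTGFRN (1.06), AFF3 (1.59), IGF1R (0.78), REL (0.51) and MTHFD2 (0.90). It moved further away in AMOTL1 (-0.75) and NUAK2 (-0.79). Of the named genes that were not called at baseline, MKI67 (-2.60), CCNE1 (-1.27), WT1 (-1.04), NF2 (-0.66) and CDH2 (-0.66) moved down relative to the other lines. CDK6 moved up (0.77). MKI67, the proliferation marker, overlapped the other lines in DMSO.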

How the results depend on the processing

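The counts of 1073 higher and 1491 lower genes stayed within 1.5 times under all but 2 kinds of alternative. A 4-fold limit left 190 and 269 genes, and a single contrast against the mean of the other 3 lines called 3352 and 4192. Leaving out each of the 11 libraries in turn gave 943 to 1124 higher and 1364 to 1512 lower genes in DMSO, and leaving out each H2452 library under palbociclib gave 1004 to 1150 and 1282 to 1456. Libraries with the same replicate number did not deviate together in every pair (r from -0.047 to 0.36, median 0.17, over 15 pairs; from -0.36 to 0.27, median -0.083, over 30 pairs with different numbers). The numbers go with the days of treatment but name no shared experiment across lines, so the libraries were not taken as paired. With a replicate block 1109 and 1499 genes were called. Among the lists, a pseudocount of 50 left 10 of the 15 lower HOX genes, and the 19 interferon-stimulated genes ranged from 10 to 27. The count of genes whose difference changed under palbociclib, 2077 with DMSO and palbociclib libraries paired by experiment, was 640 with no replicate block and 650 to 1413 without one H2452 pair; these alternatives were chosen after seeing the data. The cause was not tested. Of 104 named genes tested under 24 alternatives, 89 had a call, of which 58 kept it in each and 31 lost it in at least 1; of the others, 11 gained a call in at least 1, and 0 changed sign. The data are 1 line against 3 lines, and depth limits genes with values of a few CP20M.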
